A study of Homo sapiens with 27 samples.

Results

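The effect of TFEB loss was followed in fed 501mel cells, a human melanoma line with high MITF, by setting the 3 libraries of the TFEB KO control against the 3 libraries of untreated WT cells. These are 6 of the 27 libraries of the study and were chosen by genotype and treatment labels alone. The study compared WT, TFE3 KO, TFEB KO and double knockout (DKO) cells without drug or after 12 h with Torin (250 nM), which inhibits the kinase mTOR, and WT cells after 12 h in HBSS, a salt solution without amino acids. RNA was measured with QuantSeq Forward, a method that reads the 3′ end of polyadenylated transcripts. The knockouts were made by delivering Cas9 with a guide RNA, and the TFEB KO was 1 clone, so its 3 libraries sample 1 clone and the effect of the genotype and of that clone cannot be told apart. No treatment acted on either group. The labels call the WT cells non-treated and the TFEB KO cells a 12 h control, so handling of the dishes may differ as well, and this cannot be told apart from genotype. The medium is DMEM with 10% serum in the labels and RPMI in the methods. Nothing in the labels says how the 3 libraries of a group were set up, so p-values measure the spread between these libraries, which may be technical.

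TFEB belongs to the MITF/TFE family of basic helix-loop-helix leucine zipper factors, which bind E-boxes around a CACGTG core. In fed cells mTORC1 at the lysosome phosphorylates TFEB and holds it in the cytoplasm, and on starvation TFEB enters the nucleus and activates genes of lysosomes and autophagy. In melanocytes and melanoma MITF drives the pigment programme and identity of the cell, and TFE3 and TFEB recognise the same sequences.

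The guide RNA that made the TFEB KO is shown because it places the edit, with its PAM in capitals.
TFEB guide and PAM: agtacctgtccgagacctatGGG
It matched 1 site in hg38, chr6:41690831-41690850 on the minus strand. The site lies in coding exon sequence, in exon 3 of the 9 exons of the canonical TFEB transcript in GENCODE, and Cas9 would cut at codon 99 of 476. The gene itself spans chr6:41683978-41736259 on the minus strand. The libraries read the 3′ end of the transcript, which is outside the edited exon, so the level of TFEB reads does not check the edit.

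TFEB was low in every library. Normalised TFEB values, on the CPM scale (reads scaled for depth, by factors not given), were 3.45, 3.96 and 2.34 in WT, from 21, 20 and 12 reads. They were 0.911, 0.750 and 1.66 in TFEB KO, from 4, 4 and 10 reads. All 3 TFEB KO libraries were below all 3 WT libraries. The log2 fold change, from limma on log2(value + 1), was -1.02 ± 0.32 (SE), with an adjusted p of 0.0249. This call was lost in 7 of the 16 alternatives run, among them the fits without WT replicate 1 or 2 (adjusted p = 0.0745 and 0.0988) and without TFEB KO replicate 1 or 2 (adjusted p = 0.0849 and 0.102). MITF was 719, 778 and 788 in WT and 721, 685 and 734 in TFEB KO, with a log2 fold change of -0.09 ± 0.06 that did not pass the test (adjusted p = 0.332). TFE3 was 24.3, 23.8 and 24.0 in WT and 31.4, 27.0 and 22.7 in TFEB KO. The groups of these related factors overlapped, and the change of TFE3 was 0.15 ± 0.17 (adjusted p = 0.621).

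The 6 libraries held 4162120 to 6251213 reads in the genes of the table, and 3 reads, taken as the floor, were worth 0.493 to 0.683. Each library was more alike its own group (mean r of 0.987 to 0.989 across genes) than the other (0.979 to 0.983), and none stood apart. Melanocytic markers were high in both groups: all 8 melanocytic markers, among them MITF, PMEL and TYRP1, were tested and their summed value was 6240 to 6430 in WT and 5930 to 6280 in TFEB KO. T cell, macrophage and epithelial markers had 1 tested member each and endothelial markers 0. In bulk RNA fewer cells of a type and less RNA per cell cannot be told apart.

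Of the 13052 genes tested by limma, 218 passed an adjusted p under 0.05 with a change of at least 2-fold, and these are called changed below. The larger changes were mostly increases: 185 genes rose in TFEB KO (1.42% of genes tested) and 33 fell (0.253%). Without a minimum fold, 974 genes were higher (7.46%) and 937 lower (7.18%), so the imbalance was in the larger changes. The median log2 fold change over all genes was 0.00. Many were low: 84 had a mean value of at least 5, 74 of them higher and 10 lower, and in 30 of the genes that rose every WT library had 3 reads or fewer. All log2 fold changes are on log2(value + 1), which understates the change of low genes.

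Among called genes with a mean value of at least 5 and no overlap between the groups, those that rose most were SSX1, KRT81 and SLIT1. SSX1, a cancer-testis antigen on chromosome X (48255392-48267444), had values of 4.93, 6.14 and 2.73 in WT and 72.2, 69.0 and 53.5 in TFEB KO. The lowest TFEB KO library was far above the highest WT library. Its mean was 14.1 times higher, with a log2 fold change of 3.60 ± 0.21 (adjusted p = 1.62e-17). KRT81, a hair keratin gene on chromosome 12 (52285913-52291534), rose from 2.96, 4.55 and 3.12 to 60.8, 56.6 and 40.4. This was 14.8 times in the means, with a log2 fold change of 3.56 ± 0.28 (adjusted p = 1.57e-13). SLIT1, a secreted ligand of axon-repelling Robo receptors, was nearly silent in WT. It stood at 0.986, 0.396 and 0.976 in WT and 13.0, 12.2 and 12.1 in TFEB KO (log2 fold change 2.93 ± 0.30, adjusted p = 4.14e-10). SSX1 has close paralogues, and KRT81 overlaps KRT86, a near copy on the opposite strand, so their reads may have been split in counting.

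DHRS2, a mitochondrial short-chain dehydrogenase, was 10.4, 7.52 and 9.37 in WT and 67.6, 60.5 and 60.7 in TFEB KO, and the groups were far apart (log2 fold change 2.67 ± 0.19, adjusted p = 2.70e-14). RNASE1, a secreted ribonuclease, moved from 17.4, 10.5 and 10.7 to 56.7, 56.0 and 55.4 (log2 fold change 2.07 ± 0.14, adjusted p = 7.37e-16). APOD, a lipid-binding apolipoprotein, moved from 6.41, 7.52 and 9.37 to 30.7, 29.1 and 31.0 (1.85 ± 0.16, adjusted p = 6.11e-12). The 3 TFEB KO libraries of RNASE1 and of APOD lay close together. PRKCB, a protein kinase C, rose from 11.2, 11.3 and 14.4 to 54.0, 45.5 and 39.6 (1.83 ± 0.20, adjusted p = 2.15e-09). The other genes among the 15 highest within these limits were the long non-coding RNA LINC00504 (2.29), the actin-capping protein gene CAPG (2.23), THSD7A (2.20), the PI3 kinase gamma subunit gene PIK3R6 (2.10), the T cell adaptor gene FYB (2.07), the chaperone gene CLU (2.05), AHNAK2 (2.03) and EPB41L4A (2.02). FYB lay at 8.20 to 10.4 in TFEB KO and 0.986 to 1.98 in WT, while the T cell marker CD247 overlapped between the groups.

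**Figure D1:**
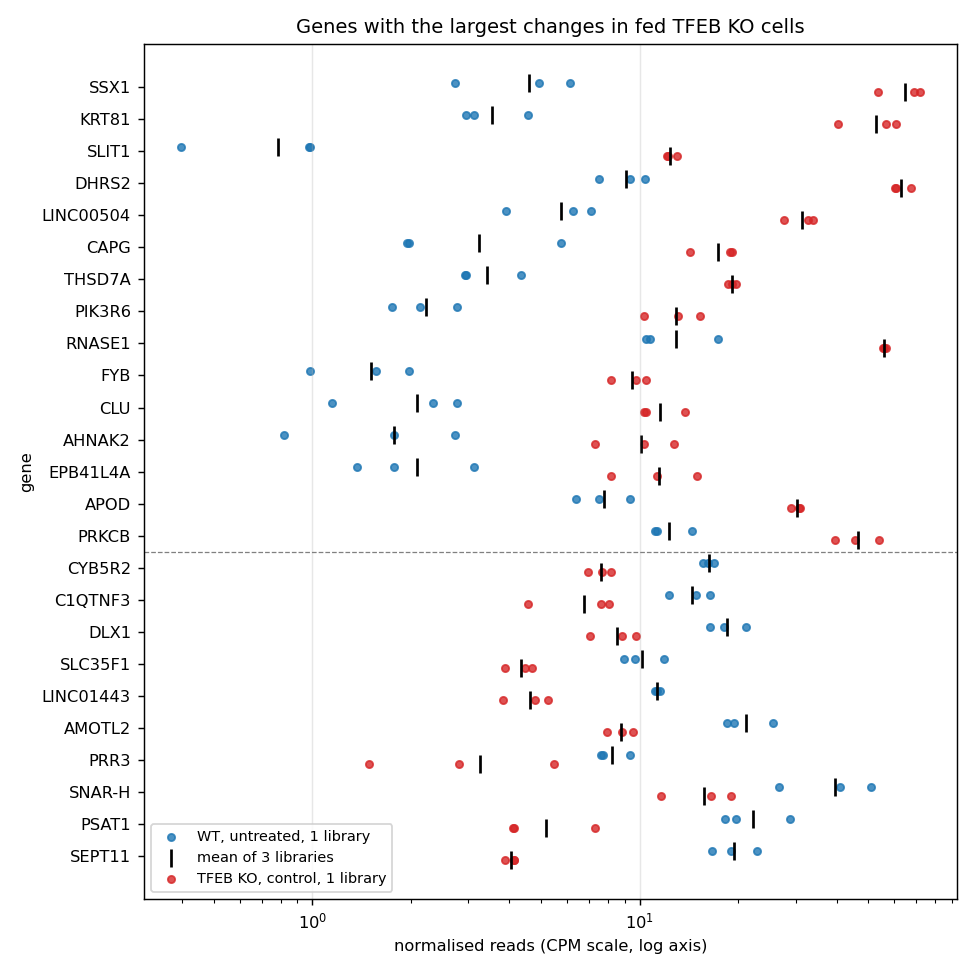
Normalised value (x axis, CPM scale, log axis) of the 15 genes that rose most and the 10 that fell most (y axis) among called genes with a mean of at least 5 and no overlap, in each library, blue for untreated WT and red for TFEB KO, with a black bar at the mean of 3 libraries. SSX1 goes from 2.73-6.14 to 53.5-72.2 and SEPT11 from 16.6-22.8 to 3.87-4.14.

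Fewer genes fell, and only 10 passed the same limits on level and overlap. SEPT11, a septin of the filament-forming GTPase family, was 16.6, 19.0 and 22.8 in WT and 3.87, 4.12 and 4.14 in TFEB KO. PSAT1, an aminotransferase of serine synthesis, was 28.8, 18.2 and 19.7 in WT and 4.10, 7.31 and 4.14 in TFEB KO. Each had its groups well apart. The means were 4.81 times lower for SEPT11 (log2 fold change -2.01 ± 0.28, adjusted p = 1.31e-06) and 4.29 times lower for PSAT1 (-1.92 ± 0.27, adjusted p = 1.38e-06). AMOTL2, an angiomotin that binds YAP, was 19.4, 25.5 and 18.5 in WT and 9.56, 8.81 and 7.96 in TFEB KO (-1.17 ± 0.17, adjusted p = 3.36e-06). SNAR-H, a small non-coding RNA from a family of near copies whose reads may be split, was 26.6, 41.0 and 50.9 against 11.6, 16.5 and 19.1 (-1.26). The remaining 6 were PRR3 (-1.22), LINC01443 (-1.14), SLC35F1 (-1.06), the homeobox gene DLX1 (-1.04), C1QTNF3 (-1.03) and CYB5R2 (-1.0). These lay near the fold limit: leaving out 1 library took PRR3, SLC35F1, DLX1, C1QTNF3 and CYB5R2 under it. Without TFEB KO replicate 3 PRR3 was at -0.89 and CYB5R2 at -0.95, and without TFEB KO replicate 1 C1QTNF3 was at -0.80, DLX1 at -0.92 and SLC35F1 at -0.99. Without WT replicate 1 C1QTNF3 was at -0.94 and CYB5R2 at -0.98, and without WT replicate 2 SLC35F1 was at -0.95 and DLX1 at -0.94. LINC01443 lost its call with a pseudocount of 0.1 (adjusted p = 0.217) and DLX1 with the identical WT Torin column described further on kept (adjusted p = 0.0942).

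Lysosomal and autophagy genes, the known targets of TFEB, did not fall as a group. Of 61 lysosomal hydrolases and membrane proteins tested, 1 was called higher and 0 lower, where 1.42% and 0.253% of all genes were. Their median was 0.08 beside 0.00 for all genes. At adjusted p alone 6 were higher (9.84%, against 7.46% of all genes) and 3 lower (4.92%, against 7.18%). The called gene was CTSS, cathepsin S, at 3.45, 1.78 and 3.90 in WT and 9.34, 6.93 and 6.96 in TFEB KO (1.14 ± 0.28, adjusted p = 0.0036), which without WT replicate 2 was at 0.89. LAMP2, a lysosomal membrane protein, was at 132 to 156 in WT and 166 to 182 in TFEB KO (0.28). PSAP, the saposin precursor, was also higher (0.34). LAMP2 and PSAP were singled out after their values were seen. Of the 19 genes of the vacuolar ATPase, which acidifies the lysosome, 0 passed in either direction by limma, 0 had an unadjusted p under 0.05, and 0 were called by edgeR or DESeq2. The most abundant, ATP6V0C, ATP6V1E1 and ATP6V1G1, were at -0.04, -0.03 and -0.03. Their direction turned when single libraries were left out.

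Of 41 genes of autophagy 0 were called by limma, edgeR or DESeq2. At adjusted p alone 9 were higher (22.0%, against 7.46% of all genes) and 3 lower (7.32%, against 7.18%). Their median was 0.11 (12 higher and 3 lower at unadjusted p under 0.05). OPTN, an autophagy receptor, was at 17.8 to 20.9 in WT and 33.2 to 35.8 in TFEB KO (0.78 ± 0.12, adjusted p = 7.25e-06), and MAP1LC3B, the LC3B gene, changed by 0.51. Among the most abundant members the receptor gene SQSTM1 was at 381 to 396 in WT and 440 to 475 in TFEB KO (0.24), GABARAP was at -0.10 and TAX1BP1 at 0.01, and the last 2 did not pass. The 34 Rag, FLCN and sestrin genes, which control mTORC1, had 0 called by limma or edgeR and 1 by DESeq2. At adjusted p alone 5 were higher (14.7%, against 7.46% of all genes) and 1 lower (2.94%, against 7.18%). Their median was 0.07 (9 higher and 4 lower at unadjusted p). Of their most abundant members RRAGC, a Rag GTPase, was at 171 to 193 in WT and 204 to 234 in TFEB KO (0.26), and LAMTOR1 (-0.11) and LAMTOR5 (-0.12) did not pass. OPTN and MAP1LC3B were chosen after their values were seen.

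Interferon-response genes were higher. Of the 57 tested, 7 were called higher and 0 lower, where 1.42% and 0.253% of all genes were. At adjusted p alone 20 were higher (35.1% of the list, against 7.46% of all genes) and 0 lower, with a median of 0.34. The called members were IFIH1, a sensor of double-stranded RNA (1.50), the immunoproteasome subunits PSMB9 (1.41) and PSMB8 (1.24), the ISG15 conjugating enzyme UBE2L6, the tetherin gene BST2, the antiviral membrane protein gene IFITM2 (1.19) and the deconjugating protease gene USP18 (1.18). IFITM2 was 9.53, 9.30 and 7.42 in WT and 22.5, 21.7 and 19.4 in TFEB KO (SE 0.18, adjusted p = 3.00e-06). PSMB9 was 4.27, 2.38 and 2.54 in WT and 7.06, 12.4 and 9.95 in TFEB KO, and PSMB8 was 3.29, 4.55 and 2.73 against 7.74, 11.1 and 10.1. In each the libraries of the 2 groups did not overlap. UBE2L6 had 2 reads in all WT libraries together and 30 in all TFEB KO libraries, a ratio of 16.6 after scaling for depth (95% exact interval 4.20 to 143), and BST2 had 4 and 34 (ratio 9.39, interval 3.35 to 36.4). These intervals cover counting error only.

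The most abundant gene of the interferon set that passed was IFITM3, at 214, 159 and 181 in WT and 345, 361 and 275 in TFEB KO (0.82 ± 0.09, adjusted p = 2.89e-09). IFITM2 and IFITM3 are near copies whose reads may be split. IFI6 was at 62.5 to 67.3 in WT and 84.7 to 93.5 in TFEB KO (0.45). TAPBP, which loads peptides on class I molecules, was at 33.3 to 40.4 in WT and 43.4 to 47.6 in TFEB KO (0.31). HLA-B passed at 0.59, but its groups overlapped. IFITM3, IFI6, TAPBP and HLA-B were chosen after their values were seen.

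Respiratory chain genes were slightly lower. Of the 61 tested 0 were called by limma, edgeR or DESeq2, but 23 were lower (37.7% of the list, against 7.18% of all genes) and 1 was higher at adjusted p alone, with a median of -0.21 (35 and 1 at unadjusted p). SDHC, a subunit of succinate dehydrogenase in complex II, had the largest decrease and was 199, 174 and 166 in WT and 104, 103 and 122 in TFEB KO (-0.71 ± 0.09, adjusted p = 1.58e-07). NDUFV2, a subunit of complex I, was 304, 261 and 288 in WT and 195, 207 and 194 in TFEB KO (-0.52 ± 0.07, adjusted p = 1.79e-06). In neither did the groups overlap. Of the most abundant members UQCRH of complex III was at -0.26 (adjusted p = 0.00772), while COX8A (-0.18) and ATP5L (-0.18) did not pass. In all 3 of these WT replicate 1 was above the other WT libraries, at 1198, 865 and 978. The summed value of the list was 15800 to 18800 in WT and 14100 to 15000 in TFEB KO. The single member that was higher, PPARGC1A, encodes the coactivator PGC1 alpha and was at 25.1 to 29.9 in WT and 35.0 to 42.9 in TFEB KO (0.44). SDHC, NDUFV2 and PPARGC1A were chosen after their values were seen. In the same clone under Torin the median of this list was -0.12. There 0 members were called, where 2.05% of all genes were called higher and 0.391% lower. In DKO against TFE3 KO the median of the list was -0.0, beside -0.01 over all genes.

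**Figure D2:**
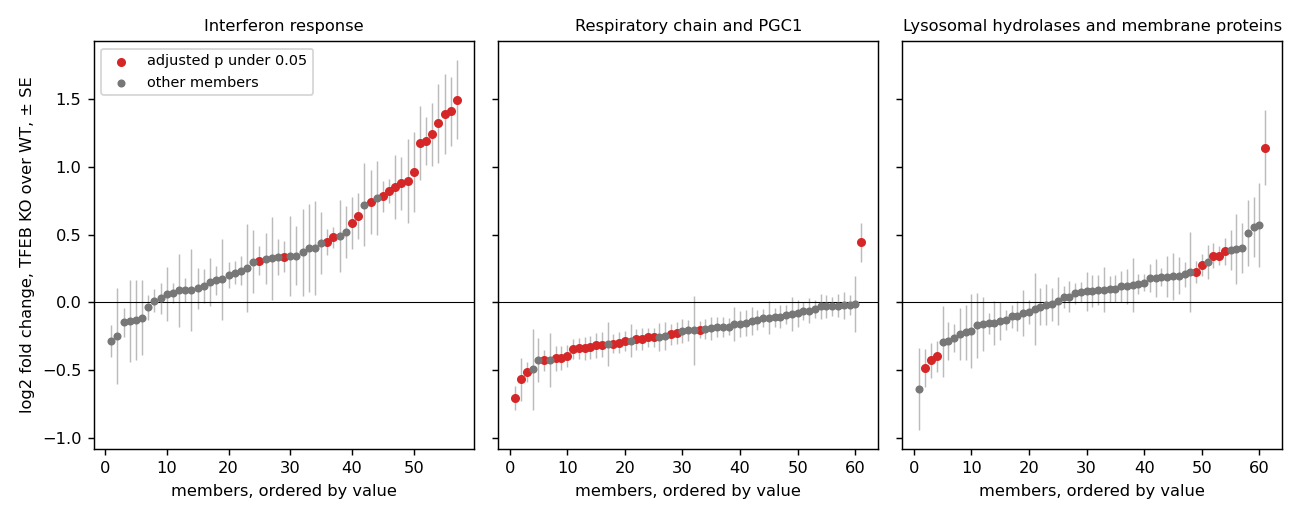
Log2 fold change of TFEB KO over WT in fed cells with its SE (y axis) for each tested member of 3 gene lists, ordered by value (x axis), red where the adjusted p was under 0.05. Interferon genes reach 1.50 with 0 members lower at adjusted p alone, PPARGC1A alone of the 61 respiratory chain genes lies above 0, and the 61 lysosomal genes lie on both sides.

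Of 67 E2F targets, which serve DNA replication, 0 were called by limma, edgeR or DESeq2. At adjusted p alone 12 were lower (17.9%, against 7.18% of all genes) and 0 higher, with a median of -0.16 (22 lower and 0 higher at unadjusted p). In the same clone under Torin the median of this list was 0.18. There 1 member was called higher, where 2.05% of all genes were, and 0 lower. MCM3, of the replicative helicase, encoded on chromosome 6, was at 266 to 303 in WT and 195 to 204 in TFEB KO (-0.49 ± 0.08, adjusted p = 1.48e-05), and PCNA, the polymerase clamp, was at 155 to 170 and 109 to 147 (-0.40). Of the most abundant members the maintenance methyltransferase gene DNMT1 was at 407 to 546 and 359 to 380 (-0.38), and FEN1 (-0.14) and RRM1 (-0.12) did not pass. The 76 genes of G2/M and mitosis had 0 called by limma, edgeR or DESeq2. At adjusted p alone 4 were higher (5.26%, against 7.46% of all genes) and 1 lower (1.32%, against 7.18%). Their median was 0.04 (10 higher and 5 lower at unadjusted p). TOP2A (0.23), CENPF (0.04) and SMC4 (-0.03) did not pass. MYC, in the list of MAPK output, was at 11.7 to 18.0 in WT and 4.55 to 11.3 in TFEB KO (-0.78, adjusted p = 0.0208). MCM3, PCNA and MYC were chosen after their values were seen.

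Of 53 melanocyte lineage and pigment genes, 1 was called higher and 0 lower, where 1.42% and 0.253% of all genes were. At adjusted p alone 5 were higher (9.43%, against 7.46% of all genes) and 11 lower (20.8%, against 7.18%), with a median of -0.10. The called gene was CAPG, at 5.75, 1.98 and 1.95 in WT and 18.9, 19.1 and 14.3 in TFEB KO, which is an actin-capping protein and no enzyme of pigment. TFAP2A, a partner factor of MITF at melanocyte genes, was 347, 334 and 317 in WT and 174, 196 and 214 in TFEB KO (-0.77 ± 0.11, adjusted p = 2.87e-05). EDNRB, the endothelin receptor, was at 118 to 123 in WT and 81.5 to 98.6 in TFEB KO (-0.45). GPNMB, a melanosomal and lysosomal glycoprotein gene, was at 165 to 192 and 129 to 156 (-0.38). RAB27A, which tethers melanosomes to the cortex, went the other way, at 83.3 to 98.6 in WT and 147 to 172 in TFEB KO (0.86 ± 0.09, adjusted p = 9.47e-10). The melanosome genes TYRP1 and PMEL were at -0.19 (adjusted p = 0.0234) and 0.00, and PMEL did not pass. TFAP2A, EDNRB, GPNMB and RAB27A were chosen after their values were seen.

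Genes of the invasive and dedifferentiated state had 7 members of 48 called higher, where 1.42% of all genes were, and 0 lower, with a median of 0.18. At adjusted p alone 10 were higher (20.8%, against 7.46% of all genes) and 4 lower (8.33%, against 7.18%). Among those called were the receptor kinase gene AXL (1.98), the IGF-binding protein gene IGFBP5 (1.40), the collagen gene COL1A1 (1.32), the activin gene INHBA (1.30), the integrin gene ITGA3 (1.20) and the matrix gene TGFBI (1.15). These were low in WT. By DESeq2 TGFBI was not called (adjusted p = 0.0553). AXL was 0.329, 1.19 and 0.976 in WT and 8.20, 5.81 and 4.64 in TFEB KO (SE 0.29, adjusted p = 2.72e-06), and IGFBP5 was 6.57, 3.36 and 5.46 in WT and 12.3, 18.2 and 14.3 in TFEB KO. Each was without overlap. CTGF and CYR61, matricellular targets of YAP, moved the opposite way: CTGF was 41.4, 47.5 and 39.0 in WT and 20.9, 25.1 and 20.1 in TFEB KO (-0.92 ± 0.17, adjusted p = 0.000229), and CYR61 was 56.9, 58.4 and 62.6 against 28.5, 35.6 and 32.5 (-0.87 ± 0.14, adjusted p = 5.09e-05). CTGF and CYR61 were chosen after their values were seen. Of 9 fibroblast markers 5 were tested and COL1A1 and THY1 (1.05, with overlap) were called higher, where 1.42% of all genes were. THY1 lost its call without WT replicate 1 (0.79) and without TFEB KO replicate 1 (0.83) or 2 (0.94). Their summed value was 4.16 to 5.85 in WT and 7.63 to 12.2 in TFEB KO, and the part of other cells in the COL1A1 change was not tested.

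Cancer-testis antigens split. Of 20 tested, 4 were called higher and 0 lower, where 1.42% and 0.253% of all genes were. At adjusted p alone the same 4 were higher and 5 others lower, where 7.46% and 7.18% of all genes were (median of the list -0.12). Beside SSX1 the called genes were MAGEA10, at 23.7, 18.8 and 19.1 in WT and 59.7, 58.9 and 60.5 in TFEB KO (1.50 ± 0.14, adjusted p = 1.22e-11), TEX14 (5 reads in WT and 32 in TFEB KO) and FAM133A (1.04). MAGEA1, a related antigen, was at 20.9 to 26.0 in WT and 11.4 to 14.8 in TFEB KO (-0.74, adjusted p = 0.00152) and was chosen after its value was seen. MAGE genes have near copies, so their reads may be split. FAM133A was at 0.76 without WT replicate 1 and 0.80 without TFEB KO replicate 3.

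Of 19 keratins and epithelial junction genes, 3 rose (KRT81, KRT86 at 1.91 and KRT17 at 1.48), where 1.42% of all genes did, and 0 fell. At adjusted p alone 7 were higher (36.8%, against 7.46% of all genes) and 1 lower (5.26%, against 7.18%), with a median of 0.35. KRT18, the epithelial marker measured, was at 5.54 to 7.42 in WT and 5.44 to 6.63 in TFEB KO, and was not called. By DESeq2 KRT86 was not called (adjusted p = 0.064). Of 45 axon guidance genes, 2 rose, SLIT1 and the ephrin receptor gene EPHA7 (1.0), where 1.42% of all genes did, and 0 fell. At adjusted p alone 9 were higher and 0 lower, where 7.46% and 7.18% of all genes were (median of the list 0.18). EPHA7 was at 3.45 to 5.74 in WT and 9.78 to 9.93 in TFEB KO, and fell under the fold limit without WT replicate 1 (0.86), WT replicate 3 (0.98) or TFEB KO replicate 2 (0.99). The ephrin gene EFNB2, chosen after its value was seen, was at 4.55 to 5.27 and 9.56 to 13.1 (0.95). In the same clone under Torin the median of the axon guidance list was -0.03. There 2 of its members were called higher, where 2.05% of all genes were, and 0 lower. At adjusted p alone 4 were higher and 3 lower under Torin.

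Of 26 genes of serine, one-carbon and asparagine synthesis and of 41 genes of the integrated stress response, PSAT1 was the 1 member called in each list. It fell, where 0.253% of all genes did. At adjusted p alone 3 members of the first list were higher (11.5%, against 7.46% of all genes) and 5 lower (19.2%, against 7.18%), with a median of -0.05. In the second list 4 were higher and 4 lower (9.76% each), with a median of -0.01. PHGDH, the enzyme just before PSAT1, was at 276 to 285 in WT and 245 to 275 in TFEB KO (-0.12, adjusted p = 0.311). Of genes that ATF4 is known to activate, the asparagine synthetase gene ASNS was higher, at 45.1 to 46.1 and 59.7 to 64.9 (0.44, adjusted p = 0.0295), and ATF4 itself was at 381 to 400 and 326 to 355 (-0.19, adjusted p = 0.0320). Of 28 genes of fatty acid uptake and oxidation CPT1A, the liver carnitine palmitoyltransferase, fell from 4.27, 5.15 and 5.66 to 1.82, 1.31 and 0.829 (-1.39, lost with a pseudocount of 0.1, adjusted p = 0.0708), and the brain form CPT1C rose from 2.14, 0.594 and 1.56 to 4.10, 3.19 and 4.31 (1.05, 0.77 without WT replicate 2 and 0.98 without TFEB KO replicate 3). The fatty acid list had 1 member called in each direction, where 1.42% of all genes rose and 0.253% fell. At adjusted p alone 2 of its members were higher and 2 lower (7.14% each). Of 34 cholesterol genes 1 rose, where 1.42% of all genes did, and 0 fell. At adjusted p alone 4 were higher (11.8%) and 0 lower. The called gene was the sterol reductase gene TM7SF2, at 3.76 to 4.68 in WT and 9.95 to 10.3 in TFEB KO (1.07). PHGDH, ASNS and ATF4 were chosen after their values were seen.

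Of 41 genes of hypoxia and glycolysis 0 were called by limma, 2 by edgeR and 1 by DESeq2. At adjusted p alone 8 were higher (19.5%, against 7.46% of all genes) and 1 lower (2.44%, against 7.18%). The median was 0.13 (14 higher and 2 lower at unadjusted p). NDRG1, a hypoxia-induced gene, was at 4.44 to 6.53 in WT and 10.3 to 12.4 in TFEB KO (0.93), and LDHA, lactate dehydrogenase, was at 599 to 658 and 445 to 511 (-0.36). GAPDH (-0.14), ENO1 (-0.05) and MIF (-0.14) did not pass. Of 39 p53 targets and cell death genes 1 rose, where 1.42% of all genes did, and 0 fell. At adjusted p alone 4 were higher (10.3%) and 1 lower (2.56%). The called gene was BTG2 (1.01), from 12 reads in all WT libraries to 43 in TFEB KO. Its call was lost without WT replicate 1 (adjusted p = 0.119) and without TFEB KO replicate 2 (0.0718) or 3 (0.119). Of 10 septins 1 fell, SEPT11, where 0.253% of all genes did. Its filament partner SEPT7 was at 481 to 495 in WT and 406 to 443 in TFEB KO (-0.22). The lists of the unfolded protein response (37 tested, median -0.01) and MAPK output (24 tested, median 0.08) had 0 members called by limma, with 4 higher and 4 lower in the first and 6 and 2 in the second at unadjusted p. By edgeR 0 and 2 were called, and by DESeq2 0 and 0. Of their most abundant members HSPA5 (0.26, adjusted p = 0.0169) and IER3 (-0.38, adjusted p = 0.000472) passed without the minimum fold, and HSP90B1 (0.12), CALR (-0.18), DUSP6 (0.04) and CCND1 (-0.01) did not. NDRG1, LDHA and SEPT7 were chosen after their values were seen.

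**Figure D3:**
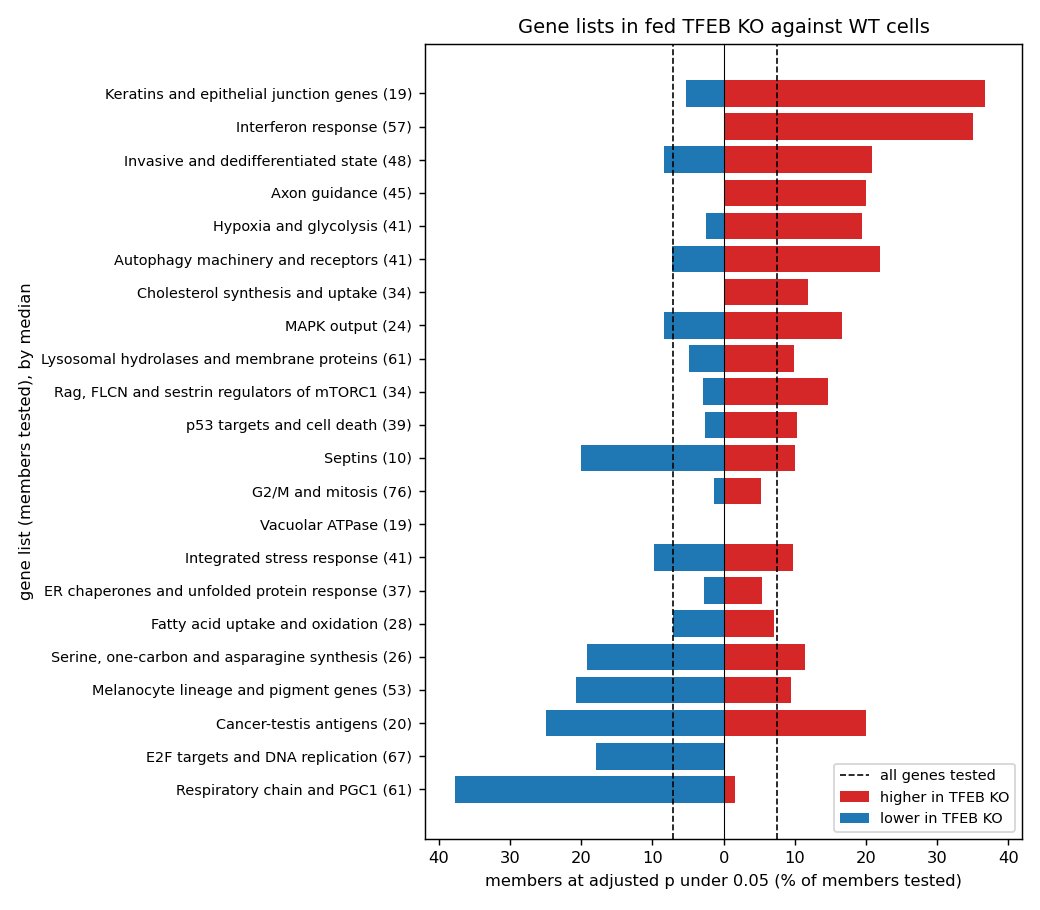
Share of tested members (x axis, percent) at adjusted p under 0.05 that were higher (red, to the right) or lower (blue, to the left) in TFEB KO, for each gene list (y axis, number tested in brackets, ordered by median log2 fold change). Dashed lines mark the shares over all genes, 7.46% higher and 7.18% lower; the interferon list reaches 35.1% higher and the respiratory chain 37.7% lower.

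The short arm of chromosome 6, which carries TFEB, was lower as a whole. Of 367 tested genes that start below 60 Mb on chromosome 6, 284 (77.4%) were lower in TFEB KO, against 49.4% on all other chromosomes, and 121 (33.0%) were lower at adjusted p alone, against 6.51%. Among genes with a mean value of at least 5 the median log2 fold change was -0.33 over 276 genes below 60 Mb, -0.03 over 225 genes above it, and -0.02 over the 9087 genes of other chromosomes. In bins of 10 Mb with at least 20 such genes, the 4 lowest medians of 189 bins were all on chromosome 6, at -0.41 (10 to 20 Mb), -0.36 (30 to 40 Mb), -0.33 (0 to 10 Mb) and -0.29 (40 to 50 Mb). The split at 60 Mb was chosen after the values were seen.

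The genes of chromosome 6 below 60 Mb took 3.76%, 3.77% and 3.83% of the summed value in WT and 3.18%, 3.13% and 3.09% in TFEB KO, with no overlap. Above 60 Mb the shares were 2.03%, 1.98% and 1.95% in WT and 1.88%, 1.90% and 1.96% in TFEB KO, where the groups overlapped. TFE3 KO libraries, which carry no TFEB edit, had 3.70% to 3.79% below 60 Mb, and the DKO, which carries it, 3.21% to 3.29%. WT cells in HBSS also had 3.30% to 3.31%, so this share varies with treatment as well. In Torin the shares were 3.72% to 3.73% in WT and 2.92% to 2.95% in TFEB KO, and the median below 60 Mb was -0.34 in that comparison. In DKO against TFE3 KO the medians were -0.26 below and -0.26 above 60 Mb. TFAP2A, PRR3, MCM3, IER3 and TFEB lie below 60 Mb, and so do PSMB8 and PSMB9, which rose, and TAPBP and HLA-B. Leaving out all 367 genes below 60 Mb gave 208 called genes in place of 218. DNA copy number was not measured, and its part was not tested.

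**Figure D4:**
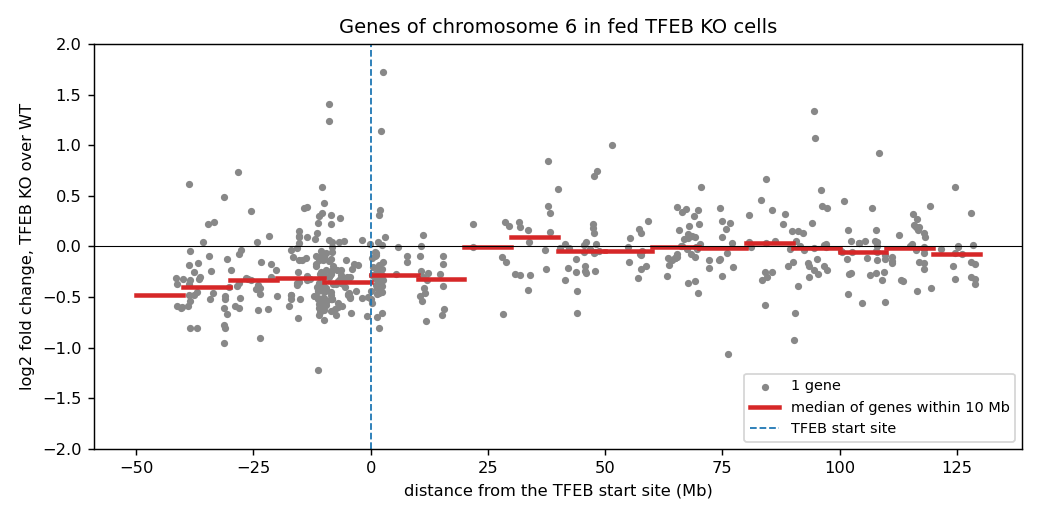
Log2 fold change of TFEB KO over WT in fed cells (y axis) for the 501 chromosome 6 genes with a mean value of at least 5, by distance from the TFEB start site (x axis, Mb), with red lines at the median of each 10 Mb. The medians lie below 0 from the left end to about 20 Mb beyond TFEB and near 0 from there on.

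The same knockout clone was compared with WT under Torin in libraries that the fed comparison does not use. There 267 genes rose (2.05%) and 51 fell (0.391%). The fit had 2 WT Torin libraries, because 1 column was identical under the labels WT HBSS and WT Torin and was left out of both. That column had 12917 genes with reads, beside 12895 and 12901 in the other WT HBSS libraries and 13188 and 13181 in the 2 WT Torin libraries. Of the 185 genes that rose in fed cells 102 were also called higher under Torin, which is 55.1% of the fed list and 38.2% of the Torin list, and 178 had the same direction. Of the 33 genes that fell 13 were called lower under Torin, 39.4% of the fed list and 25.5% of the Torin list. Over 9698 genes with a mean of at least 5 the 2 sets of log2 fold changes had a Pearson r of 0.59, across genes, which are not independent and which share the knockout clone. SSX1 changed by 3.76 under Torin, KRT81 by 3.88 and SEPT11 by -2.08, close to their fed values.

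The difference between the Torin and the fed effect was called for 15 genes higher (0.115%) and 12 lower (0.0919%), and this count was unsteady: it was 13 to 41 when 1 library was left out and 1 when the identical column was kept as WT Torin. Among named genes FAM133A rose more under Torin, by 2.59 against 1.04 (difference 1.55, adjusted p = 0.0132). The neuropeptide precursor gene VGF was 90.2, 87.7 and 86.8 in fed WT and 220, 203 and 252 in fed TFEB KO, with no overlap (1.33 ± 0.11, adjusted p = 8.07e-13), and under Torin its effect was 0.55 (difference -0.79, adjusted p = 0.00751). FBXO32, the ubiquitin ligase atrogin-1, was 33.2, 37.2 and 45.1 in fed WT and 87.0, 87.7 and 87.0 in fed TFEB KO (1.17 ± 0.10, adjusted p = 2.02e-12), and 0.27 under Torin (difference -0.90, adjusted p = 0.000719). Their differences passed the test without reaching 2-fold. VGF and FBXO32 were chosen after their values were seen.

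TFEB loss in cells without TFE3 was read from DKO against TFE3 KO, again without a shared library but with other clones. Here 71 genes rose (0.544%) and 26 fell (0.199%). Of the 185 genes that rose in fed TFEB KO, 25 were also called higher (13.5% of the fed list, 35.2% of the other), and of the 33 that fell 1 was also called lower (3.03% of the fed list, 3.85% of the other). Pearson r over the same 9698 genes was 0.31. TFEB reads were already near the floor in TFE3 KO, at a mean value of 0.681 beside 0.661 in DKO, and this difference did not pass the test (0.03, adjusted p = 0.981).

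The difference between the 2 backgrounds was called for 34 genes in the higher (0.260%) and 86 in the lower direction (0.659%), 120 in all, and for 47 when the identical column was kept. In the test without it 44 of the 185 genes that rose had a smaller effect in TFE3-null cells and 0 a larger one. The 185 genes were chosen on fed values that also enter this difference. That choice favours smaller effects, so the count cannot show how far the background matters. In TFE3-null cells SSX1 changed by 1.25, from a mean of 2.84 to 8.10. KRT81 changed by 0.76, from 0.375, under the value of 3 reads, to 1.34, and did not pass (adjusted p = 0.109). APOD changed by -0.26, which did not pass (adjusted p = 0.460), and PIK3R6 fell by 1.15 (adjusted p = 0.00333). RNASE1 started from 51.4 in TFE3 KO, against 12.9 in WT, and reached 76.7. SEPT11, PSAT1 and CPT1A were at 0.118, 0.491 and 0.235 in TFE3 KO, near or under the value of 3 reads. Genes that changed in the same direction in each of the 3 comparisons included PRKCB (2.08), PSMB8 (1.73), MAGEA10 (1.50), CLU (1.44) and AMOTL2 (-1.09). SSX1, AXL (1.20), PSMB9 (1.13) and EPB41L4A (1.09) were also among them. TFAP2A (-0.68) and CYR61 (-0.86) were lower in each without the minimum fold.

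**Figure D5:**
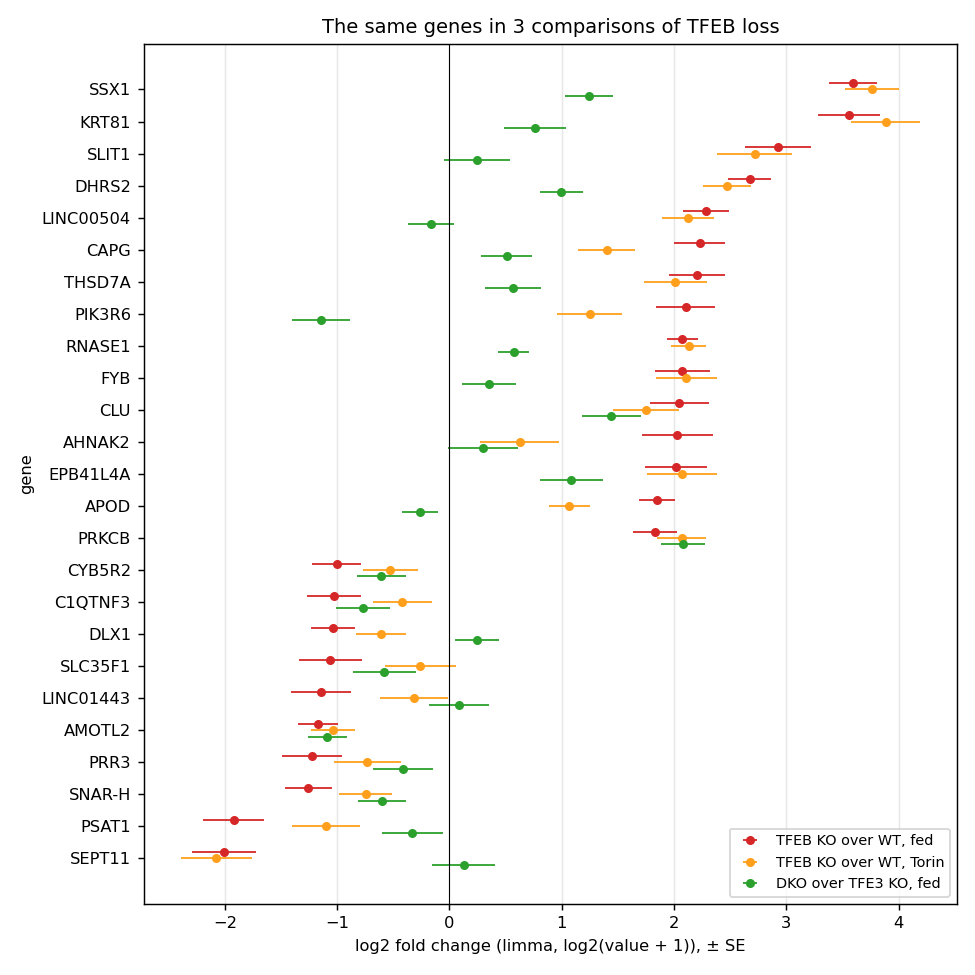
Log2 fold change with its SE (x axis) of the 15 genes that rose most and the 10 that fell most in fed TFEB KO cells among called genes with a mean of at least 5 and no overlap (y axis), in fed cells (red), under Torin (orange) and in DKO against TFE3 KO (green). Genes were chosen on the red values; SSX1 is at 3.60, 3.76 and 1.25, PRKCB at 1.83, 2.07 and 2.08, and PIK3R6 at 2.10, 1.25 and -1.15.

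RefSeq promoter sequences (GRCh38.p14, 250 bases before to 50 after the start) were matched for 10234 of the tested genes. CACGTG, a palindrome and so the same on both strands, was in 10.4% of all these promoters, in 12 of 123 promoters of genes that rose (9.76%) and in 3 of 27 of genes that fell (11.1%). The longer TCACGTGA, which contains CACGTG, was in 1.99% of all, in 2 promoters of genes that rose (1.63%) and in 1 of genes that fell (3.70%). At adjusted p alone CACGTG was in 9.38% of 757 promoters of higher genes and 14% of 777 of lower genes. The longer TCACGTGA was in 1.45% of promoters of higher genes and 1.93% of lower genes there, against 1.99% of all. The share among genes that rose (1.63%) was near that of all promoters (1.99%), and 1 promoter is too few to judge genes that fell. The 3 called genes with the longer form are shown to give its sequence context, with the motif in capitals and 20 bases on either side.
OGDHL: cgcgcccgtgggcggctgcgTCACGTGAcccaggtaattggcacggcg
BEX1: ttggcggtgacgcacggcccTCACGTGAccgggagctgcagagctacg
MFSD1: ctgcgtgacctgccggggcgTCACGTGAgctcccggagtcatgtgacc
The windows are chr10:49762318-49762365 (minus strand), chrX:103064192-103064239 (minus strand) and chr3:158802018-158802065 (plus strand), and the motif begins 22, 48 and 16 bases before the start. A match is a description of letters and no sign of binding.

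OGDHL, an oxoglutarate dehydrogenase-like gene, had 4 reads in all WT libraries and 33 in all TFEB KO libraries (ratio 9.11, 95% exact interval 3.24 to 35.4), and its call was lost with the identical column kept (adjusted p = 0.074). BEX1, a small signalling adaptor gene, was 0.329, 1.58 and 1.17 in WT and 4.33, 3.94 and 5.30 in TFEB KO (1.49). MFSD1, a lysosomal dipeptide transporter gene, was 2.96, 1.98 and 3.51 in WT and 0.455, 1.31 and 0.497 in TFEB KO (-1.13 ± 0.30, adjusted p = 0.0079), and its call was lost with a pseudocount of 0.1 (adjusted p = 0.0671). In each the groups did not overlap. These were chosen after their values were seen.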

How the data were processed

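The authors trimmed reads (trim_galore, cutadapt 2.10), mapped them to hg38 with STAR and normalised counts with edgeR. The deposited values are a normalised signal per gene symbol on the CPM scale. They summed to 989621 to 1027290 per library in untreated WT and 936278 to 950962 in TFEB KO control. The counter, scaling and gene filter are not given in the sources used here. In every column 100% of values were whole multiples of the value of 1 read (within 0.01), so reads were recovered by division. Floors cover counting error only.

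Tested genes (13052 of 13523) reached a value of 1 in 3 libraries or more. limma 3.58.1 (trend, robust; R 4.3.3) fitted 1 group-means model to log2(value + 1) of 25 libraries. p was 2-sided and adjusted by Benjamini-Hochberg over all genes tested. Calls required a 2-fold change (log2 of 1) at an adjusted p below 0.05. Fits were tested on simulated data. edgeR 4.0.16 and DESeq2 1.42.0 on recovered reads were alternatives, with another pseudocount, filter, scaling or sample set, a replicate block and single libraries left out.

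Named genes were MITF, TFE3 and TFEB, the 15 highest and 15 lowest called genes (mean of at least 5, no overlap), called list members, and in lists without any up to 3 of the highest mean. Members and lists were chosen with earlier results of these data known. Genes were placed with GENCODE v44 and RefSeq. Some genes are not reported here.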

Additional observations from a re-analysis of the deposited data

Results flagged for a closer look

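For 3 named genes the effect of TFEB loss differed by at least 2-fold between Torin and fed cells by the test of the difference in limma. The difference (Torin minus fed) was 1.55 for FAM133A (adjusted p = 0.0132), 1.60 for the non-coding RNA OVAAL (0.0138) and 1.85 for the linker histone gene HIST1H1B (0.0449). With the identical column kept as WT Torin a single gene was called in this test. OVAAL and HIST1H1B were chosen after their values were seen.

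For 16 named genes that rose in fed TFEB KO the effect was lower by at least 2-fold in TFE3-null than in WT background. The difference was -3.25 for PIK3R6, -2.79 for KRT81, -2.68 for SLIT1, -2.45 for LINC00504, -2.35 for SSX1 and -2.11 for APOD. It was -1.80 for KRT86, -1.73 for AHNAK2, -1.72 for FYB, -1.72 for CAPG, -1.68 for DHRS2 and -1.64 for THSD7A. It was -1.60 for OVAAL, -1.50 for RNASE1, -1.35 for FAM133A and -1.0 for TM7SF2. Adjusted p was between 2.71e-08 (APOD) and 0.0445 (TM7SF2). It was positive for 5 genes that fell in fed TFEB KO: DLX1 (1.28), CPT1A (1.28), PSAT1 (1.59), HIST1H1B (1.60) and SEPT11 (2.14), with adjusted p from 0.000521 (SEPT11) to 0.0467 (CPT1A). SEPT11, PSAT1 and CPT1A were near the floor in TFE3 KO. KRT81 (0.375), SLIT1 (0.483), KRT86 (0.111) and THSD7A (0.104) were near or under it there as well. On log2(value + 1) this understates their change in TFE3-null cells and can widen the difference. Genes were named with the fed values known, and these values enter the difference, which favours a smaller effect.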

How the results depend on the processing

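The fed comparison called 145 to 314 genes over the alternatives: 145 with a minimum value of 5, 314 by edgeR (208 of the 218 genes shared) and 285 by DESeq2 (200 shared). Leaving out 1 library gave 232 to 270, and the count that fell went from 33 to 50 without TFEB KO replicate 3. A minimum value of 5 gave 190 genes under Torin in place of 318. DKO against TFE3 KO gave 150 by DESeq2, 160 by edgeR and 164 with a pseudocount of 0.1, in place of 97. Keeping the identical column as WT Torin left 1 of 27 genes in the test of Torin minus fed and 47 of 120 in that of TFE3-null minus WT background. Leaving out 1 library gave 13 to 41 in the former, with 14 without TFEB KO control replicate 1, 41 without TFEB KO control replicate 3, 16 and 14 without TFEB KO Torin replicates 1 and 3, and 13 without WT Torin replicate 3. In genes with reads the identical column was nearer to the other WT HBSS libraries than to the other WT Torin libraries. The cause of these shifts was not tested.

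The TFEB transcript was at -1.53 by DESeq2 (adjusted p = 0.115), -1.51 with a pseudocount of 0.1 (0.103) and -1.02 with the identical column kept (0.180), none of which passed, and at -1.20 to -0.90 without single libraries. The 60 called genes named kept their call in 898 of 936 values under alternatives, with 0 reversals. Promoters with the motif numbered 2 and 1 with TCACGTGA.

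Genes near 0 changed sign without single libraries: CENPF (-0.22 to 0.20), CD247 (-0.31 to 0.30), SMC4 (-0.11 to 0.07), TAX1BP1 (-0.02 to 0.06), CCND1 (-0.12 to 0.05), PMEL (-0.02 to 0.02), ENO1 (-0.13 to 0.08), ATP6V0C (-0.14 to 0.07), ATP6V1E1 (-0.07 to 0.01) and ATP6V1G1 (-0.08 to 0.04). CENPF was at -0.00 and CD247 at -0.08 by DESeq2, and CD247 at -0.09 by edgeR.

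The replicate numbers do not pair the libraries: deviations of same-numbered libraries correlated at -0.06, -0.01 and -0.03. With the replicate number as a block 218 genes were called, as without it. Depth limits genes under about 3 reads per library.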
